A study of Mus musculus with 9 samples.

Results

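The Parental EB5 cells are the unedited mouse embryonic stem cells of a series that measured RNA by sequencing. They supplied 3 of its 9 samples, chosen by the group label alone, and are described here without reference to the 6 samples of edited cells. Per the labels, EB5 was derived from the male line E14tg2a of the 129Ola strain and has the genotype Oct3/4IRES-BSD-pA/+ at the locus of Pou5f1, for which Oct3/4 is another name. How that insertion bears on the Pou5f1 level was not tested. The cells grew on gelatin-coated dishes, with no feeder layer named, in GMEM with 10% FCS and leukemia inhibitory factor (LIF), the cytokine that holds mouse embryonic stem cells in self-renewal. Polyadenylated RNA was made into strand-marking libraries (TruSeq) and read as single ends of 75 bases. The labels do not say whether the 3 libraries came from separate cultures, so the spread between them may be technical.

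Mouse embryonic stem cells correspond to the early epiblast and can form every tissue of the body. The transcription factors POU5F1, SOX2 and NANOG hold this pluripotent state together with ESRRB and KLF factors in naive cells, and OTX2, FGF5 and the de novo DNA methyltransferases mark the step towards the later, formative and primed epiblast. In serum and LIF such cultures are known to be mixed, with a few cells that express genes of the 2-cell embryo or of early lineages.

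The libraries held 21506076, 20437605 and 19375027 expected counts in replicates 1, 2 and 3. Levels are given in TPM (transcripts per 1000000 transcripts), a length-normalized share that can be compared between genes. Each is the mean ± SD of the 3 libraries (n = 3 throughout). A gene with a mean of at least 1 TPM is taken as expressed. For a transcript of 2 kb, 1 count was worth 0.0415, 0.0431 and 0.0469 TPM in the 3 libraries, so that levels of a few hundredths of a TPM rest on single reads. Of 24411 gene symbols, 12755 (52.3%) reached 1 TPM and together held 99.8% of all TPM, while 5539 (22.7%) had no count in any library. Of the 12755 expressed genes, 7913 reached 10 TPM, 1551 reached 100 TPM and 132 reached 1000 TPM. The 132 highest genes held 41.4% of all TPM, and 262 genes were needed to hold 50%. The 100 genes with the highest TPM held 37.4% ± 0.427 of TPM. Ranked by counts instead, the 100 genes with the most counts held 20.7% ± 0.346 of the counts. Genes with a protein-coding accession reached 1 TPM in 12257 of 20655 cases (59.3%), and those with noncoding accessions only in 498 of 3756 (13.3%).

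**Figure D1:**
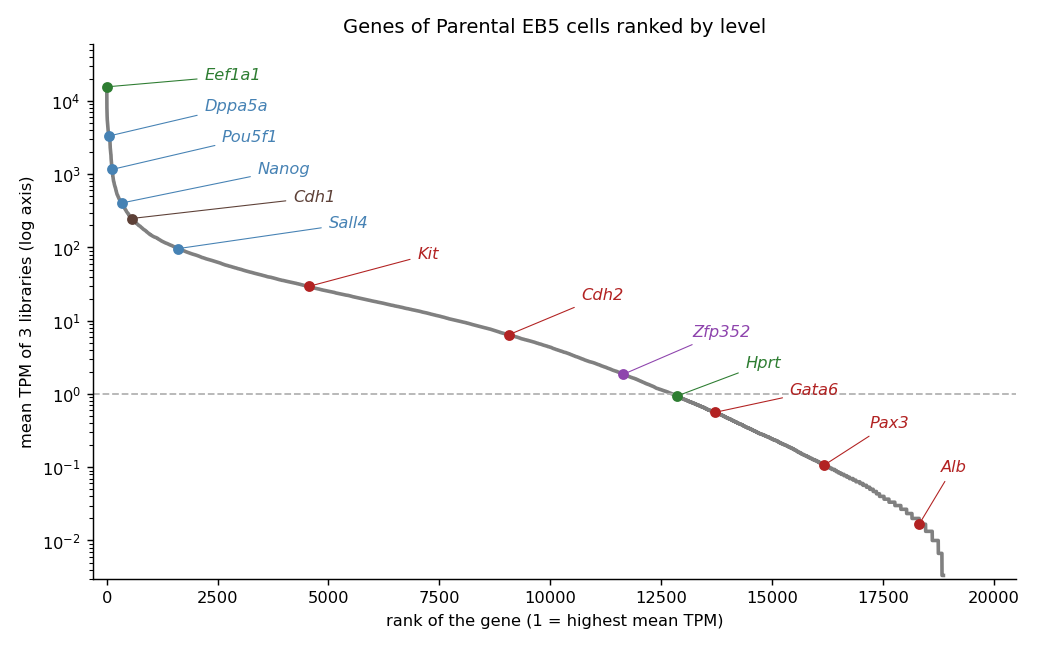
Mean TPM of the 3 Parental libraries (vertical log axis) against the rank of each gene by that mean (horizontal axis, 1 is the highest), with a dashed line at 1 TPM. The marked genes are examples. The core pluripotency genes Dppa5a, Pou5f1, Nanog and Sall4, in blue, lie in the steep left end of the curve. In red, the lineage genes Kit, Gata6, Pax3 and Alb, and Cdh2 of the formative and adhesion lists, lie further down. Hprt lies at 0.937 TPM, just under the line. The order does not hold for whole lists. The unmarked lineage gene Fn1 had rank 527, above Sall4 at rank 1604, and the unmarked core genes Lin28b and Foxd3 had ranks 7174 and 7353.

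The top of the ranking was the protein synthesis machinery. Eef1a1, the elongation factor that brings aminoacyl-tRNA to the ribosome, was the highest gene, with 15352.1, 15366.9 and 16060 TPM in replicates 1, 2 and 3 (15593 ± 404). The peptidyl-prolyl isomerase gene Ppia was next at 9552 ± 65.7 TPM, and the ranges of these genes did not overlap. Rpl23a (8804 ± 305 TPM), the nucleolar chaperone gene Npm1 (7971 ± 426 TPM) and Rplp1 (7670 ± 290 TPM) followed. Of the 25 highest entries, 16 were ribosomal protein genes by symbol. The others were Eef1a1, Ppia, Npm1, the chaperone genes Hspa8 (4973 ± 82.5 TPM) and Hsp90ab1 (4631 ± 70.3 TPM), Gnb2l1 (4944 ± 202 TPM), which encodes the ribosome-bound scaffold RACK1, the predicted gene Gm15772 and a pair of microRNA loci. The 25 together held 15.5% ± 0.132 of TPM.

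All 78 ribosomal protein genes reached 1 TPM and 74 of them reached 100 TPM, with a median of 3247 TPM and a summed share of 24.9% of TPM. The 4 below 100 TPM were Rpl30 (60.7 TPM), Rpl34 (53.0 ± 4.61 TPM), Rpl26 (35.7 ± 9.11 TPM) and Rps27 (5.61 ± 0.686 TPM). For 3 of these, a near-identical copy elsewhere in the genome held most of the counts. These pairs were picked after the values were seen. Gm15772, annotated by RefSeq as a transcribed pseudogene at chr5:3236390-3236928 with Rpl26 among its synonyms, had 6215 ± 110 TPM, a ratio to Rpl26 of 184 that ran from 149 to 249 across the libraries. The counts of Rpl26 were 142.54, 223.99 and 203.63, against 33761.5, 32416 and 28916.4 for Gm15772. Rps27rt, a retrotransposed copy of Rps27, had 2806 ± 9.90 TPM, and Rpl34-ps1 had 1602 ± 24.0 TPM. The entries of a pair can share reads, so the value of a single entry is uncertain, and how the reads were divided was not tested.

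The microRNA loci among the 25 highest, Mir692-2 and Mir692-3, had identical values of 5548 ± 286 TPM. Each rested on 2338, 2328 and 1932 counts over an annotated length of 109 bases, of which 34.6 bases counted as effective length, so that few counts gave a large TPM. Libraries of polyadenylated RNA with reads of 75 bases do not capture mature microRNAs, and 1121 of 1180 microRNA loci had no count.

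The highest genes of the protein synthesis machinery can be shown with the sequence around their start. Ribosomal protein and elongation factor genes are known to begin at a C within a run of pyrimidines, the start of the 5' terminal oligopyrimidine tract through which their translation follows growth signals. The stretches below run from 20 bases before to 15 bases after the RefSeq start (GRCm38.p6), 5' to 3' on the gene's strand, for the 4 highest genes that have the run, and capitals mark a C followed by at least 5 C or T. Eef1a1 lies at chr9:78481710-78481744 (minus strand), Rps2 at chr17:24720043-24720077 (plus strand), Rpl12 at chr2:32961692-32961726 (plus strand) and Rps18 at chr17:33955651-33955685 (minus strand). For Rps2 the start in the promoter table lies inside the gene's RefSeq span, which begins at position 24718121 of chromosome 17.
Eef1a1: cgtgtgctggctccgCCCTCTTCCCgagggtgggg
Rps2: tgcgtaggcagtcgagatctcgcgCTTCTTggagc
Rpl12: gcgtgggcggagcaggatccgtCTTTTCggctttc
Rps18: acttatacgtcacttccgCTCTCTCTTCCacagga
Such a run lay within 10 bases of the start, on the gene's strand, in 27 of 57 ribosomal protein genes with a promoter entry (47.4%), in 30.9% of the 94 genes of at least 1000 TPM and in 15.6% of all 18132 genes with an entry. It is a match of letters in the reference and was not measured as a transcript start.

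Genes of general upkeep were high and even between libraries, with 1 exception. The reference genes, often used to normalize expression, reached 1 TPM in 17 of 18 cases with a median of 236 TPM. All 17 translation factors (median 888 TPM, among them Eif4a1 at 3578 ± 29.5 TPM and Eef2 at 3341 ± 107 TPM) and all 18 chaperones (median 676 TPM) were above 100 TPM. Over all genes the median was 1.36 TPM.

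The exception was Hprt, which encodes the purine salvage enzyme hypoxanthine phosphoribosyltransferase and lies at chrX:52988078-53021660. It had 0.98, 1.02 and 0.81 TPM in replicates 1, 2 and 3, from 15, 15 and 11 counts. All 3 values lie at the expression threshold, and Hprt had rank 12857. Tbp, the TATA-binding protein gene and otherwise one of the low reference genes, had 37.9 ± 0.965 TPM, a ratio to Hprt of 40.9 that ran from 37.1 to 48.0. Of genes near it on the X chromosome, Phf6 had 14.3 ± 1.33 TPM, Fam122b 8.98 ± 0.564 TPM and Mospd1 3.66 ± 0.692 TPM. Plac1, which lies between Hprt and Fam122b, was lower at 2.52 ± 0.778 TPM. E14tg2a, the line from which EB5 came, is known as an HPRT-deficient line selected with thioguanine. The genome of these cells at Hprt was not analysed here.

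Glycolysis genes reached 1 TPM in 23 of 25 cases. Pkm, the pyruvate kinase gene of most tissues, had 2382 ± 51.3 TPM and its liver and red cell counterpart Pklr 1.20 ± 0.106 TPM, a ratio of 1990 (1800 to 2171 across libraries). Ldha exceeded Ldhb by 2.83-fold (2.62 to 3.04), and the glucose transporter gene Slc2a3 exceeded Slc2a1 by 1.24-fold (1.19 to 1.31). Hk2 had 76.9 ± 3.91 TPM and Hk1 27.7 ± 1.38 TPM.

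Cell cycle genes reached 1 TPM in 30 of 32 cases, with a median of 53.3 TPM. Cdk4 had 598 ± 16.4 TPM, the replication clamp gene Pcna 432 ± 12.2 TPM and the topoisomerase gene Top2a 409 ± 5.94 TPM. Of the D cyclins, Ccnd3 was highest at 121 ± 6.14 TPM, Ccnd1 had 53.9 ± 0.817 TPM and Ccnd2 2.25 ± 0.287 TPM. Among inhibitors of cyclin-dependent kinases, Cdkn1a had 49.7 ± 3.16 TPM, Cdkn1b 20.5 ± 1.25 TPM, Cdkn2a 13.4 ± 0.490 TPM and Cdkn2b 4.79 ± 1.12 TPM. The retinoblastoma gene Rb1 had 6.43 ± 0.0600 TPM. Mycn exceeded Myc by 2.29-fold (2.13 to 2.40 across libraries).

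All 20 genes of the core pluripotency list reached 10 TPM and 12 of them reached 100 TPM. Their median was 144 TPM and their sum 8040 ± 69.3 TPM. Dppa5a, a gene for a KH-domain protein of early embryos and germ cells, was the highest member with 3302, 3343 and 3331 TPM in replicates 1, 2 and 3 (3326 ± 21.1, rank 51). Pou5f1 had 1144, 1122 and 1222 TPM (1163 ± 52.3, rank 120), a range that overlapped that of the lactate dehydrogenase gene Ldha (1218 ± 69.4 TPM). Tdgf1, the gene of the NODAL co-receptor Cripto, had 738 ± 23.0 TPM. The ranges of these 3 genes did not overlap.

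Nanog and Sox2 were several-fold below Pou5f1. Nanog had 403, 405 and 406 TPM in the 3 libraries (404 ± 1.23, rank 334). Sox2 had 357, 347 and 352 TPM (352 ± 5.48, rank 392), below every Nanog value. The ratio of Pou5f1 to Nanog was 2.88 ± 0.124 and that of Pou5f1 to Sox2 3.31 ± 0.149. Utf1, a chromatin-bound factor of undifferentiated cells, had 405 ± 28.0 TPM, and its range overlapped that of Nanog. L1td1, which derives from a LINE-1 open reading frame, had 382 ± 8.84 TPM. Of 19 neighbouring pairs in the order of this list, 5 overlapped between libraries, among them Utf1 with Nanog, Fgf4 with Gdf3, and Lin28b with Foxd3. The lower end of the list held Lin28b (12.9 ± 0.478 TPM) and Foxd3 (12.2 ± 1.05 TPM).

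All 18 naive pluripotency genes reached 10 TPM and 8 reached 100 TPM (median 85.1 TPM). Zfp42, whose product is the marker REX1, had 1058, 1104 and 1047 TPM (1070 ± 29.9, rank 127), and its range lay just under that of Pou5f1. Klf2 had 438 ± 16.3 TPM and overlapped with Fbxo15 at 427 ± 9.34 TPM. Of the KLF factors, Klf2 exceeded Klf5 by 3.90-fold (3.68 to 4.18) and Klf5 exceeded Klf4 by 1.54-fold (1.46 to 1.65), so their order was the same in each library. The orphan nuclear receptor gene Esrrb had 259 ± 16.9 TPM, and Dppa3 (220 ± 14.7 TPM) overlapped with the imprint-protecting zinc finger gene Zfp57 (219 ± 3.07 TPM). Tfcp2l1 (31.0 ± 2.62 TPM), Tbx3 (29.1 ± 1.3 TPM), Prdm14 (18.4 ± 0.242 TPM) and Gbx2 (13.6 ± 0.229 TPM) formed the lower end.

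All 18 formative and primed genes reached 1 TPM on average, 12 reached 10 TPM and 2 reached 100 TPM (median 14.1 TPM). The highest were Dnmt3l, the catalytically inactive cofactor of the de novo methyltransferases, at 421 ± 11.6 TPM and Dnmt3b at 144 ± 4.19 TPM. Otx2 had 47.4 ± 1.04 TPM, Etv4 43.1 ± 3.31 TPM and Zic2 37.8 ± 1.36 TPM. The POU gene Pou3f1 had 15.1 ± 0.963 TPM, 77.0 times less than Pou5f1 (71.7 to 79.8 across libraries), and overlapped with the broadly expressed Pou2f1 (13.6 ± 1.67 TPM). Sox3 had 2.58 ± 0.509 TPM, below Sox2 by a ratio of 140 (110 to 159). Fgf5, a marker of the primed epiblast, was the lowest member with 1.56, 0.92 and 1.11 TPM, and replicate 2 was under the threshold.

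**Figure D2:**
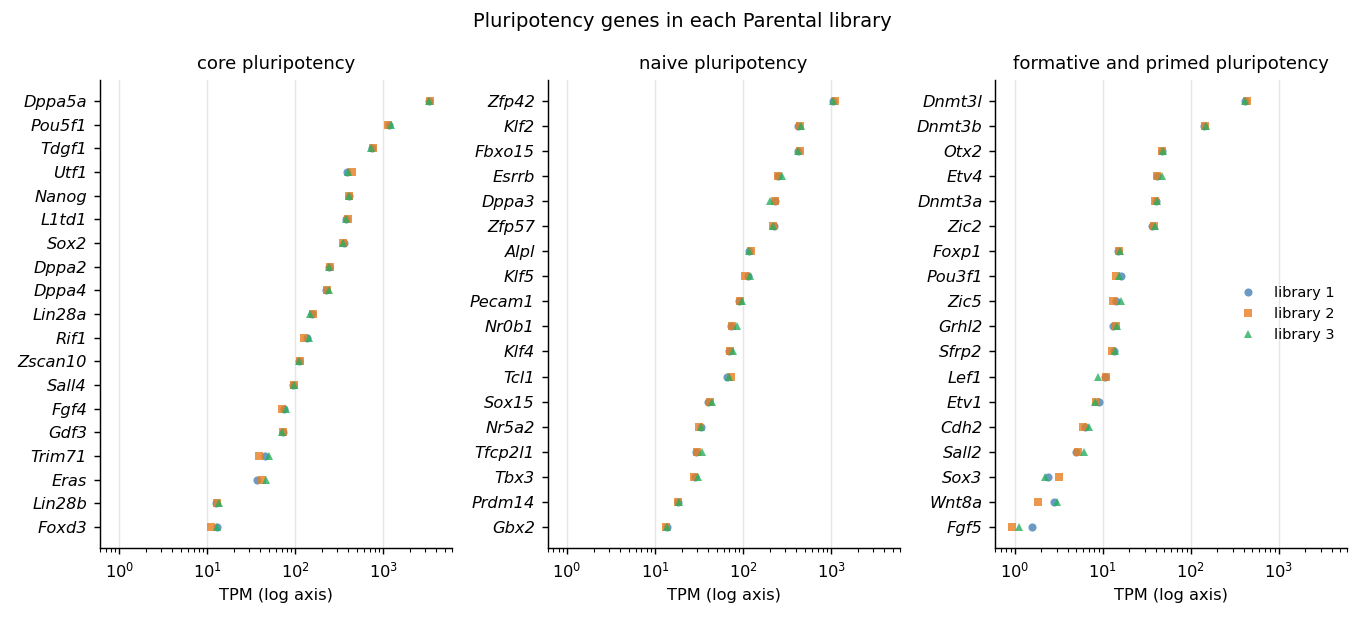
TPM (horizontal log axis) of genes of the core, naive, and formative and primed lists in the 3 Parental libraries (1 symbol per library), ordered by mean. The symbols of most genes lie on top of each other down to about 10 TPM, and the widest separation is at Sox3, Wnt8a and Fgf5, all under 4 TPM.

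One stretch of the Nanog promoter is shown because it holds a joined site for SOX2 and POU5F1, the best known regulatory sequence of this network. The search was for the SOX letters CATTGT followed after 1 base by the OCT letters ATGCAAA, on both strands, from 250 bases before to 50 bases after each RefSeq start, and it was chosen with the Nanog site known. The stretch is chr6:122707385-122707454 of GRCm38.p6 on the plus strand, 180 to 111 bases before the downstream of the 2 listed Nanog starts, and the capitals mark the joined site, which reads as given on the minus strand.
Nanog: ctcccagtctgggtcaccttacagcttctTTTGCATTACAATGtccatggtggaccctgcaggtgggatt
Among 32851 starts searched, 2 held this exact joined site (0.00609%), and both were starts of Nanog. Their windows overlap and hold the same stretch, so this is 1 site seen from 2 starts. The letters searched are those of the Nanog site, so a match there was given in advance. The count does not show how particular such sites are to Nanog. The octamer ATGCAAAT, whose first 7 letters are the OCT letters, was searched on both strands of the same windows. It was present in 1.67% of the 18132 promoters, in 0 of 13 promoters of the core list and in 1 of 12 of the naive list. A missing match says only that these letters are not in this window.

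Cells in the 2-cell-like state express genes of the cleavage embryo, switched on by the homeobox factor DUX, and are known as a small part of stem cell cultures. In bulk RNA, fewer cells of a type and less RNA per cell cannot be told apart. Of 25 genes of this list found in the tables, 21 reached 1 TPM and 1 had no count. Their median was 4.90 TPM and their sum 327 ± 2.58 TPM, 0.0327% of all TPM. Zscan4f, of a gene family tied to telomere maintenance, accounted for much of that sum, with 108, 106 and 117 TPM (110 ± 5.71). Zscan4b (40.9 ± 2.56 TPM), Zscan4c (39.8 ± 3.24 TPM), Zscan4a (23.5 ± 1.32 TPM) and Zscan4d (21.9 ± 1.65 TPM) followed. The order of Zscan4b and Zscan4c differed between libraries, as did the order within other near neighbours, and 12 of 20 neighbouring pairs in the list overlapped. Members of these families are near-identical and share reads, so the split between members is uncertain.

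The remaining 2-cell-like genes were low. Tcstv3 had 13.5 ± 1.50 TPM, Tmem92 10.6 ± 1.15 TPM and the transcript B020031M17Rik 9.24 ± 0.710 TPM. Tdpoz4, of a family of TRAF- and POZ-domain genes of the early embryo, had 5.23 ± 0.698 TPM, Tdpoz3 2.42 ± 0.0814 TPM, and Tdpoz1 had no count in any library, where a count of 0 allows up to 3 counts. Zfp352, the zinc finger gene that was deleted in the other cells of the series, had 1.78, 2.05 and 1.76 TPM from 47, 52 and 41 counts (1.86 ± 0.162 TPM, rank 11653). Dux had 1.57, 1.64 and 2.12 TPM (1.78 ± 0.299), and its range overlapped that of Zfp352. Tcstv1 was the least even of the expressed members, with 2.15, 2.91 and 0.91 TPM.

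Lineage genes were tallied by tissue, and each count is to be read against the 52.3% of all 24411 genes that reached 1 TPM. Among the 20655 genes with a protein-coding accession, the closer background for these lists, the share was 59.3%. Trophectoderm genes reached 1 TPM in 14 of 20 cases, but the sum of 503 ± 27.8 TPM came mostly from the simple-epithelium keratins Krt8 (139 ± 9.75 TPM), Krt18 (120 ± 11.5 TPM) and Krt19 (85.2 ± 10.4 TPM), and from the transcription factor gene Tfap2c (62.1 ± 1.63 TPM) and Cdh3 (50.3 ± 1.66 TPM). Each of the 3 keratins was highest in replicate 1 and lowest in replicate 3. Of the other transcription factor genes in the list, Hand1 had 9.02 ± 0.932 TPM, Ets2 7.30 ± 0.213 TPM, Tead4 5.15 ± 0.223 TPM and Ascl2 3.82 ± 0.765 TPM. Lower were Eomes at 2.50 ± 0.304 TPM, Cdx2 at 1.97 ± 0.344 TPM, Gata3 at 0.813 ± 0.123 TPM and Elf5 at 0.320 ± 0.0400 TPM.

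Primitive and visceral endoderm genes reached 1 TPM in 10 of 20 cases (sum 339 ± 9.58 TPM). The matrix genes Sparc (153 ± 1.72 TPM), Lamc1 (98.0 ± 4.32 TPM) and Lamb1 (29.6 ± 0.756 TPM) held most of the sum. The transcription factor gene Gata4 (1.53 ± 0.186 TPM) was above the threshold in every library. Gata6 (0.560 ± 0.0721 TPM), Sox17 (0.280 ± 0.177 TPM) and the receptor gene Pdgfra (0.380 ± 0.0985 TPM) were below it in every library. Afp, a secreted protein of the visceral endoderm, had 0.0300 ± 0.0265 TPM.

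Genes of the primitive streak and mesendoderm reached 1 TPM in 6 of 16 cases, with a sum of 16.9 ± 2.7 TPM. The highest was T, the Brachyury gene, with 5.43, 2.76 and 4.23 TPM (4.14 ± 1.34), lowest in replicate 2. Mesp2 had 2.20 ± 0.137 TPM, Mixl1 0.763 ± 0.112 TPM and Gsc 0.707 ± 0.427 TPM, and Cer1 had no count.

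Neural genes reached 1 TPM in 5 of 17 cases, and Tubb3 (131 ± 2.58 TPM), a beta-tubulin gene of neurons, held most of their sum of 160 ± 2.67 TPM. Nes, the intermediate filament gene of neural progenitors, had 16.0 ± 0.577 TPM and Pax6 5.56 ± 0.196 TPM, while Sox1 had 0.447 ± 0.0416 TPM and Neurog2 had no count. Muscle, blood and vessel genes reached 1 TPM in 5 of 15 cases, led by Cd34 (5.18 ± 0.415 TPM), Tek (4.60 ± 0.222 TPM) and Myh6 (4.04 ± 0.492 TPM). The pan-leukocyte gene Ptprc had 0.0400 ± 0.0265 TPM. None of the 11 genes of gut, liver, lung and pancreas reached 1 TPM. Their sum was 1.44 ± 0.0757 TPM, and 4 of them, Cyp7a1, Gcg, Ins2 and Sftpc, had no count.

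Germ cell genes reached 1 TPM in 14 of 15 cases and 10 TPM in 9, and none reached 100 TPM. The piRNA pathway gene Tdrd12 had 71.1 ± 2.45 TPM and the receptor gene Kit 29.4 ± 1.51 TPM. The zona pellucida gene Zp3 (18.6 ± 1.51 TPM), the synaptonemal complex gene Sycp3 (17.5 ± 0.211 TPM), the meiotic entry gene Stra8 (17.1 ± 1.06 TPM) and the germline helicase gene Ddx4 (12.7 ± 0.954 TPM) were present in each library. The RNA-binding protein gene Dazl had 4.99 ± 0.208 TPM, and the oocyte factor gene Gdf9 was the member under 1 TPM.

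Fibroblast genes bear on the culture, because feeder cells are a common source of foreign RNA in stem cell samples. Of 18 genes, 13 reached 1 TPM, 3 reached 100 TPM and 1 had no count. The summed level ran from 614 to 653 TPM. Fn1 (262 ± 25.4 TPM), Vim (153 ± 6.72 TPM) and S100a6 (109 ± 7.78 TPM), which many cell types express, led the list. The smooth muscle-type cytoskeletal genes Tagln (51.8 ± 2.77 TPM) and Acta2 (14.5 ± 1.33 TPM) came next. The collagen genes Col1a1 (11.9 ± 1.29 TPM), Col1a2 (6.29 ± 0.719 TPM), Col5a1 (6.29 ± 0.501 TPM) and Col3a1 (1.26 ± 0.320 TPM) and the surface antigen gene Thy1 (6.37 ± 0.630 TPM) were lower, the matrix proteoglycan gene Dcn had 0.133 ± 0.0208 TPM and Lum had no count.

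**Figure D3:**
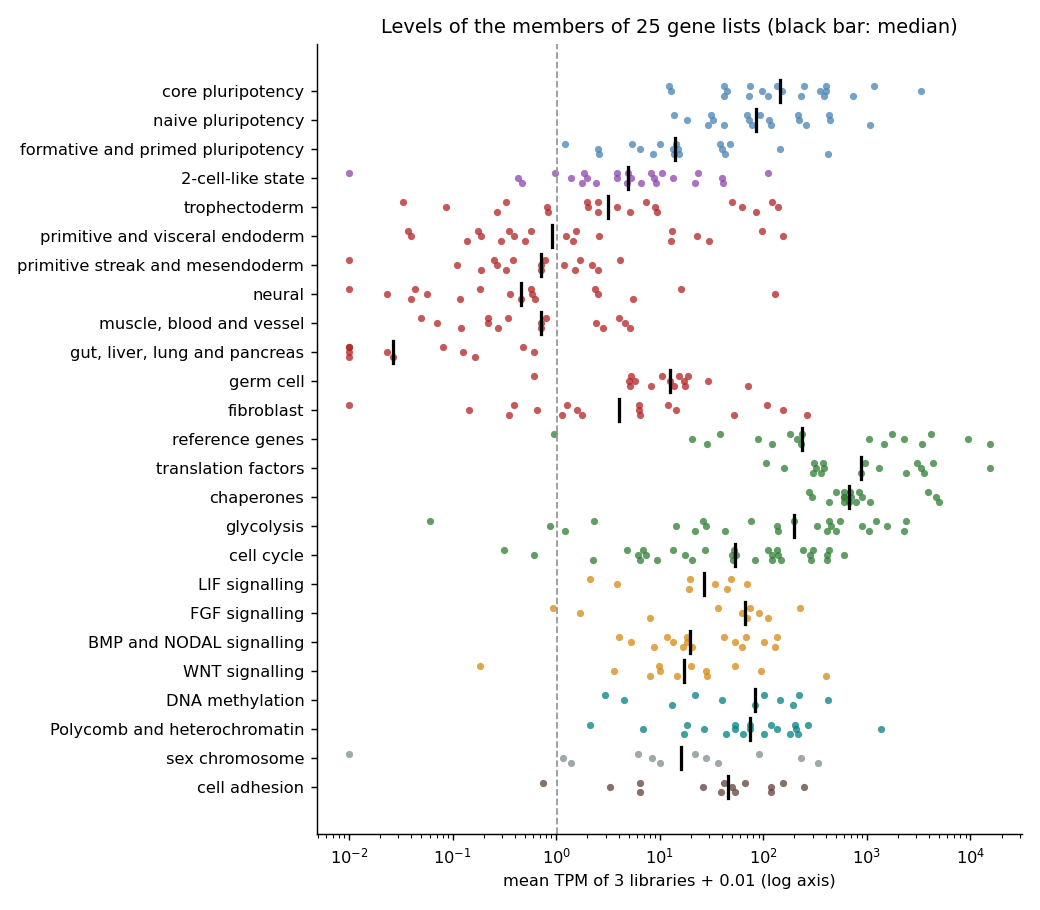
Mean TPM + 0.01 over the 3 Parental libraries (horizontal log axis) of each member of 25 gene lists, 1 point per gene, with a black bar at the median of each list and a dashed line at 1 TPM. Medians of the upkeep lists in green lie between 53.3 and 888 TPM, and those of the core and naive lists at 144 and 85.1 TPM. Of the lineage lists in red, the medians of the endoderm, streak, neural, muscle and gut lists lie to the left of the line. Those of the trophectoderm, fibroblast and germ cell lists lie to its right, at 3.17, 4.02 and 12.7 TPM.

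All 8 genes of the LIF pathway were expressed. Of the receptor chains, Il6st, which encodes the shared subunit gp130, exceeded Lifr by 1.73-fold (1.67 to 1.77), at 34.2 ± 3.33 against 19.7 ± 1.93 TPM. Downstream, Jak1 had 19.0 ± 1.39 TPM and Jak2 2.10 ± 0.180 TPM, Stat3 had 49.2 ± 1.91 TPM, and the feedback inhibitor gene Socs3, a target of STAT3, 69.7 ± 1.36 TPM. Lif itself had 3.83 ± 0.191 TPM.

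FGF signalling genes reached 1 TPM in 9 of 10 cases. The ligand gene Fgf4 had 75.1 ± 4.19 TPM. Of the receptors, Fgfr1 was highest at 62.9 ± 4.00 TPM, 7.84 times Fgfr2 (6.83 to 8.90), while Fgfr4 had 1.68 ± 0.267 TPM and Fgfr3 0.917 ± 0.269 TPM. The target genes were Etv5 (227 ± 7.99 TPM), Spry2 (91.5 ± 1.01 TPM), Spry4 (70.2 ± 1.32 TPM) and Dusp6 (36.2 ± 1.66 TPM). Each was above the median of all genes, a low bar of 1.36 TPM that includes unexpressed genes. Of the expressed genes, 95.1% were at or below Etv5 and 69.4% at or below Dusp6.

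All 16 BMP and NODAL genes were expressed. Among the ligands Bmp4 had 61.8 ± 1.50 TPM and Nodal 53.1 ± 3.80 TPM. The secreted NODAL inhibitors Lefty2 (137 ± 7.38 TPM) and Lefty1 (129 ± 3.07 TPM) were higher, at a ratio to each other of 1.06 (1.02 to 1.12). Id3, a BMP target, had 101 ± 3.81 TPM, Id1 67.7 ± 6.44 TPM and Id2 18.3 ± 2.07 TPM. WNT genes reached 1 TPM in 11 of 12 cases, led by Ctnnb1, the beta-catenin gene, at 404 ± 21.7 TPM, and the repressor gene Tcf7l1 at 94.7 ± 2.58 TPM. The feedback gene Axin2 had 7.96 ± 0.907 TPM and the inhibitor gene Dkk1 0.173 ± 0.121 TPM.

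The DNA methylation genes were all expressed, and no neighbours in their order overlapped between libraries. Below Dnmt3l stood Uhrf1 (222 ± 5.40 TPM), which brings the maintenance enzyme to replicating DNA, and Dnmt1 itself had 102 ± 2.90 TPM. Dnmt3b exceeded Dnmt3a by 3.62-fold (3.47 to 3.75). Of the TET dioxygenases, which oxidise 5-methylcytosine, Tet1 had 82.5 ± 12.7 TPM, 3.75 times Tet2, and Tet2 was 7.50 times Tet3. Tet1 and Tet2 were both lowest in replicate 2 and highest in replicate 3.

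All 20 Polycomb and heterochromatin genes were expressed. Trim28, the corepressor of KRAB zinc finger proteins, had 1384 ± 30.5 TPM and rank 109, above Pou5f1 in each library. The PRC2 genes Suz12 (209 ± 5.38 TPM), Eed (203 ± 5.42 TPM) and Ezh2 (101 ± 2.98 TPM) exceeded the paralog Ezh1 (26.6 ± 0.780 TPM), and the PRC2 accessory gene Jarid2 had 218 ± 1.85 TPM. In PRC1, Cbx7 had 118 ± 7.33 TPM, Rnf2 43.3 ± 1.16 TPM, Ring1 6.92 ± 0.897 TPM and Bmi1 2.11 ± 0.425 TPM. Of the Hox genes, classic targets of these complexes, 1 of 39 reached 1 TPM, Hoxb9 at 1.10 ± 0.193 TPM, and their sum was 6.56 ± 0.771 TPM.

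Adhesion genes reached 1 TPM in 13 of 14 cases. Cdh1, the E-cadherin gene, had 249 ± 2.00 TPM and Cdh2, the N-cadherin gene, 6.42 ± 0.466 TPM, a ratio of 38.9 (35.6 to 41.7). Epcam had 119 ± 5.47 TPM. Of the factors that repress Cdh1, Snai1 had 6.38 ± 1.48 TPM, Zeb1 3.31 ± 0.143 TPM and Zeb2 0.740 ± 0.0557 TPM.

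The labels give a male origin, and 6 of 49 genes of the Y chromosome were expressed. Among them were Zfy1 (8.39 ± 0.967 TPM) and 4 genes with a listed partner on the X chromosome. The Y-linked Eif2s3y had 91.2 ± 2.73 TPM, Ddx3y 21.9 ± 1.46 TPM, Uty 10.2 ± 0.689 TPM and Kdm5d 1.15 ± 0.0929 TPM, each below its X-linked partner, by ratios of 2.52, 15.5, 2.78 and 31.8. Sry had no count. Xist, the RNA that silences an X chromosome in female cells, had 1.47, 0.98 and 1.70 TPM, and its antisense partner Tsix 6.14 ± 0.362 TPM. These transcripts overlap, and it is not known whether the counting used the strand, so their reads may not be told apart.

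Promoters of expressed genes were more often rich in CpG dinucleotides than those of genes under 1 TPM. In the reference, 18132 genes had a promoter entry of 250 bases before to 50 bases after the start, and a promoter was taken as CpG-rich where its CpG dinucleotides exceeded 0.6 of the number its C and G content gives. Of genes at 1 TPM or more, 73.2% had a CpG-rich promoter, against 16.8% of those under 1 TPM and 48.3% of all. By class the share was 4.15% of 3418 genes with no count, 26.2% under 1 TPM, 59.4% at 1 to 10 TPM, 80.3% at 10 to 100 TPM, 85.8% at 100 to 1000 TPM and 81.9% of 94 genes at 1000 TPM or more. The TATA box letters TATAAA, searched on the gene's strand 40 to 21 bases before the start, were in 5.65% of promoters of genes with no count, in 0.720% at 10 to 100 TPM and in 3.19% at 1000 TPM or more (2.65% of all).

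**Figure D4:**
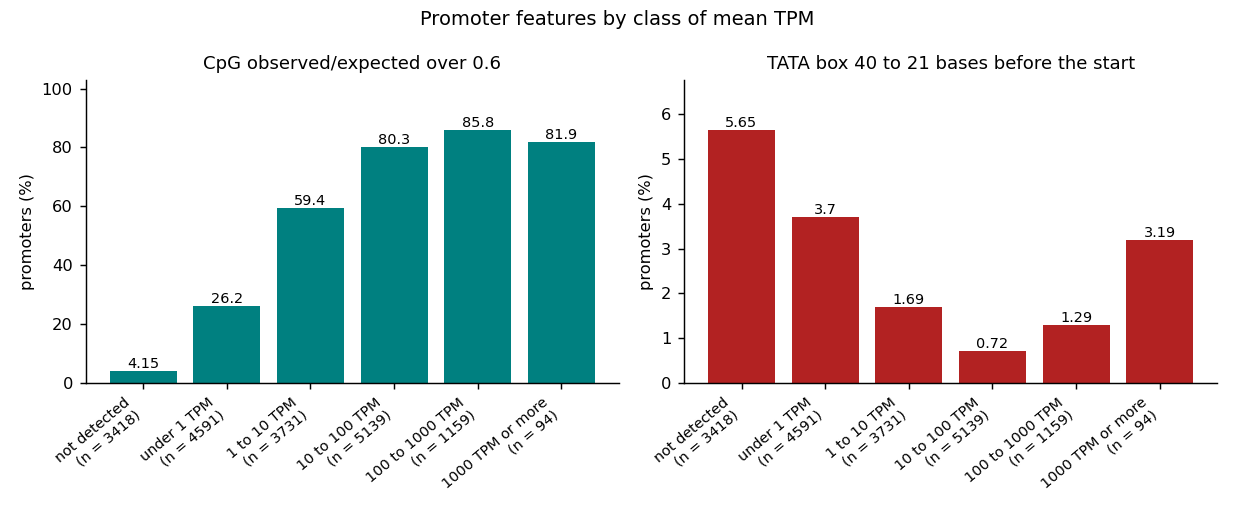
Share of RefSeq promoters (vertical axes, percent, number of genes under each bar) that are CpG-rich (left) or hold TATAAA before the start (right), by class of mean TPM in the 3 Parental libraries. The CpG-rich share climbs from 4.15% to 85.8% across the first 5 classes, and the TATAAA share is lowest at 10 to 100 TPM.

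The stretches below, the 60 bases before the start, give examples on both sides of the threshold, with CpG in capitals. Trim28, Sox2 and Alb follow the pattern of the classes, while Hprt (CpG-rich, under 1 TPM) and Zfp352 (not CpG-rich, over 1 TPM) do not. They are from GRCm38.p6 on the plus strand, at chr7:13024092-13024151 for Trim28, chr3:34649935-34649994 for Sox2, chrX:52988018-52988077 for Hprt, chr5:90460810-90460869 for Alb and chr4:90218760-90218819 for Zfp352.
Trim28: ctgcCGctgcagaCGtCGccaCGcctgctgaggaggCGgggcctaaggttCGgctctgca
Sox2: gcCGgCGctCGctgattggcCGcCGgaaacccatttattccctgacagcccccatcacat
Hprt: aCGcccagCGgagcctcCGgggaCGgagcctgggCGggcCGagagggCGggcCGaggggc
Alb: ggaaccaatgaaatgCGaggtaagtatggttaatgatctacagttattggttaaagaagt
Zfp352: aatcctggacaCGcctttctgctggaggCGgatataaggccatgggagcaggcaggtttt
Trim28 had 6 CpG in these bases, Sox2 5, Hprt 8, Alb 1 and Zfp352 2. Over the whole entry the observed-to-expected CpG ratio was 0.761 for Trim28, 0.819 for Sox2, 0.844 for Hprt, 0.272 for the liver gene Alb and 0.142 for Zfp352. Of the 5 genes, Hprt had the highest ratio, at a level of 0.937 TPM.

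Among the lists, none of 14 promoters of 2-cell-like genes and 5 of 938 olfactory receptor promoters were CpG-rich, against 48.3% of all promoters. The core list had 6 of 13 (46.2%) and the naive list 5 of 12 (41.7%), both slightly under that share. All genes of these 2 lists reached 10 TPM, and the share among genes at 10 to 100 TPM was 80.3%. Of the ribosomal protein genes, 50 of 57 had a CpG-rich promoter. The neural list, of which 5 of 17 genes were expressed, had 11 of 14 CpG-rich promoters. CCAAT, searched on both strands in the 250 bases before the start, was in 9 of 14 promoters of the 2-cell-like list and 36.3% of all. Promoters of related genes share sequence, so those of the Zscan4 and Tdpoz families are not independent.

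The 3 libraries were close to each other but not equal within counting error. Spearman correlations of TPM ran from 0.993 to 0.994 over genes, which are not independent replicates, and the chi-square of counts per degree of freedom was 2.61 for replicates 1 and 2, 3.79 for 1 and 3 and 5.54 for 2 and 3, so no library was a copy of another. For 10442 genes with a mean count of at least 100 the median CV was 4.74%, and the median CV beyond counting error was 2.74%. Over pairs of libraries the latter was 0 without replicate 3, 1.21% without replicate 2 and 2.45% without replicate 1. A gene whose spread is below counting error is set to 0, and 2 libraries give a coarse estimate. The median of 0 therefore does not mean that replicates 1 and 2 had no excess, and their chi-square was 2.61. Over all 3 libraries the excess was under 5% for 69.9% of these genes and at least 20% for 60 genes (0.575%). Of the 60, 47 were lowest in replicate 2 and 44 highest in replicate 3. Across expressed genes, the log2 ratio of replicate 2 to 3 had a Spearman correlation of -0.31 with transcript length, that of 1 to 3 -0.25 and that of 1 to 2 0.14. The part of RNA length or library preparation in these differences was not tested.

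The least even gene was Cphx1, a homeobox gene of preimplantation embryos, with 45.66, 0.42 and 415 counts in replicates 1, 2 and 3. Its near-copy Cphx2 had 350.34, 454.58 and 0 counts, the opposite order, and the sums of both were 396, 455 and 415. The CV of scaled counts was 150% for Cphx1 and 89.6% for Cphx2, but 9.78% for their sum. The proton pump subunit gene Atp6v0c had 0, 194.35 and 163.13 counts, while the copy Atp6v0c-ps2 held 4512, 4374.65 and 4045.87. The CV was 87.1% for Atp6v0c, 1.32% for Atp6v0c-ps2 and 3.18% for their sum. How reads were divided within these pairs was not tested.

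Malat1, a nuclear long noncoding RNA, was the highest of the 10 least even genes. It had 116.68, 150.21 and 277.57 TPM from 9720, 12030 and 20439 counts, and replicate 3 was above both others. Kcnq1ot1, a long nuclear RNA of an imprinted locus, was also highest in replicate 3, with 0.41, 0.25 and 0.50 TPM. The others among the 10 were Gm14391, Gm3435, Pcdhga12, Gm7334 and Igsf9b. Of the glycolysis genes, Eno1 had a spread of 493, 586 and 420 TPM (500 ± 83.1), with replicate 2 high.

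**Figure D5:**
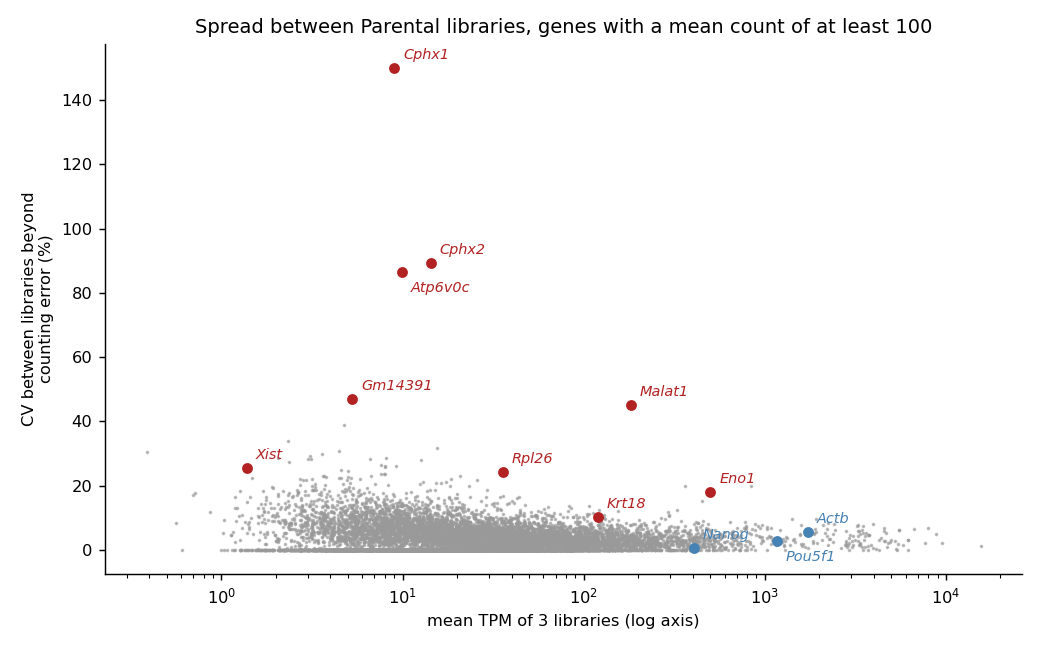
CV between the 3 Parental libraries beyond counting error (vertical axis, percent) against mean TPM (horizontal log axis) for 10442 genes with a mean count of at least 100, 1 point per gene. Most points lie under 5%, Cphx1 at the top stands apart, and Nanog, Pou5f1 and Actb in blue lie near the bottom.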

How the data were processed

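The 3 Parental EB5 libraries of polyadenylated RNA were analysed, and the 6 libraries of edited cells were not used. The submitters' processing notes name RSEM 1.3.3, STAR 2.7.8a, Trim Galore 0.6.6 and the build mm10. Their order and settings, the annotation release and any use of the strand were not given in the sources used here. Per the file headers, the authors deposited an expected count per gene, an estimate that divides shared reads (between 9.19% and 9.40% of its values per library had decimals). Per the file headers, the authors also gave TPM and FPKM, which take transcript length and depth into account. Levels are in TPM, and FPKM served as an alternative for ranks and for the number of expressed genes.

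Genes were ranked by mean TPM, and no test was run, since there is 1 group. The text names the 25 highest genes, the 10 with the widest spread beyond counting error among genes with a mean count of at least 100, and members of 25 lists and 20 sets of related genes. The members and lists were chosen with earlier results of these data known. The neighbours of Hprt and the pairs of copies were added after values were seen. Some list members are counted but not reported here by name. For the spread, counts were scaled to library totals, and the estimator was tested on simulated data. TMM factors of rounded expected counts (edgeR 4.0.16, R 4.3.3; 0.990 to 1.01) and median-of-ratios factors were alternatives. Of the symbols, 24319 of 24411 matched RefSeq genes of GRCm38.p6, which gave coordinates (1-based), biotypes and promoters. The first listed start of each gene was used for the promoter shares. The other steps used Python 3.11.15 with pandas 2.3.3 and numpy 2.4.6, and figures used matplotlib 3.10.9.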

Additional observations from a re-analysis of the deposited data

How the results depend on the processing

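Levels were recomputed with each replicate left out, with other expression thresholds, other pseudocounts and other scalings. With 1 replicate left out at a time, 12707 to 12785 genes reached 1 TPM, the 100 highest genes held 37.1% to 37.6% of TPM, and Pou5f1 had 1133 to 1183 TPM. The CpG-rich share among expressed genes was then 73.2% to 73.3%. The median CV beyond counting error ran from 0.0 to 2.45% and was 0.0 without replicate 3, where genes with a spread below counting error are set to 0. The 100 genes with the most counts held 20.7% of expected counts. With the expression threshold at 0.5 or 2 TPM, 13916 or 11528 genes passed, and the CpG-rich share was 70.5% above and 14.3% below 0.5 TPM, and 75.6% above and 20.1% below 2 TPM. With the last listed start of each gene, an alternative chosen after seeing the data, it was 71.0%.

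Of 150 recomputed counts of expressed list members, 4 moved by more than 1.5 times. The primitive streak list had 3 members at 2 TPM, the neural and the muscle, blood and vessel lists had 8 each at 0.5 TPM, and the list of gut, liver, lung and pancreas had 1. Of 50 medians on the log2 scale, 15 moved with the pseudocount. No paired analysis was possible because the result comes from 1 group and no test. Genes at a few hundredths of a TPM rest on single counts, and TPM is a share of a total, so that no level here is absolute. Copies that share reads, a single read length and a single culture system limit what the values of single genes show.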

Other observations

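Gene families picked by symbol include some genes named above, such as Zfp42, Zfp352 and Gm15772. Zinc finger genes with Zfp symbols were widely expressed, with 324 of 368 at 1 TPM or more, 129 at 10 TPM or more and a median of 6.59 TPM. Clustered histone genes, whose main transcripts lack a poly(A) tail, reached 1 TPM in 49 of 68 cases, and none reached 100 TPM. Olfactory receptor genes reached 1 TPM in 4 of 1125 cases, and 986 had no count. The highest of them was Olfr985 at 7.38 ± 0.486 TPM (SD, n = 3), with 7.01, 7.20 and 7.93 TPM in the 3 libraries. Vomeronasal receptor genes reached 1 TPM in 2 of 337 cases. Predicted genes with Gm symbols reached 1 TPM in 239 of 1238 cases, and 18 of them reached 100 TPM.

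Expressed genes differed in level by chromosome. The median TPM of expressed autosomal genes was 16.9 ± 0.601 over the libraries. It was 25.6 ± 0.987 on chromosome 8 and 24.6 ± 0.430 on chromosome 11, and both were above every autosomal median of the other chromosomes in each library. On the X chromosome it was 9.87 ± 0.200, and the ratio of the X to the autosomal median was 0.585 ± 0.00897. On chromosome 8, 705 of 1165 genes (60.5%) reached 1 TPM, and on the X chromosome 465 of 1063 (43.7%). Of 49 genes of the Y chromosome, 6 reached 1 TPM. The gene content and the copy number of these chromosomes were not tested.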
